A study of Homo sapiens with 12 samples.

Results

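The 10 genes of inflammatory signalling described here were measured in 2 lung cancer cell lines with and without added HOXC6. They are the chemokine genes CXCL1, CXCL2, CXCL3, CXCL5 and CCL20, the cytokine genes IL6 and LIF, the adhesion receptor gene ICAM1 and the feedback inhibitor genes NFKBIA and TNFAIP3. They were chosen by name, with earlier results of these data known, and found by their Ensembl identifiers among the 12584 genes of the count table used here. All 10 are in it.

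A549 and PC9 are established lines of human non-small cell lung cancer. A549 was kept in RPMI medium and PC9 in DMEM, so line and medium cannot be told apart in any comparison between them. In A549-HOXC6 and PC9-HOXC6 cells the lentiviral vector pCDH-HOXC6 carried the homeobox transcription factor gene HOXC6, while A549-NEO and PC9-NEO cells carried the empty vector pCDH-NEO, and the medium of all 4 contained neomycin after infection. PolyA RNA of stably infected cells was sequenced in 3 libraries per group, 12 in all. The paper calls the 3 replicates independent, without saying what was repeated. The promoter that drives HOXC6, the number of clones in each line and the culture behind each library are not given in the sources used here. The p-values therefore measure only the spread between these libraries. In bulk RNA, fewer cells that express a gene and less RNA per cell cannot be told apart.

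NF-kB is a family of dimeric transcription factors that inhibitors of the IkB family hold in the cytoplasm. Signals from TNF, interleukin-1 and microbial products activate the IkB kinase, IkB is degraded, and the freed dimers enter the nucleus and bind κB sites in the promoters of cytokine, chemokine and adhesion genes. NFKBIA and TNFAIP3 are themselves induced and shut the pathway off. The CXC chemokines here attract neutrophils through CXCR2, and cancer cells of the lung are a known source of them.

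The libraries held 1212053 to 3286577 counts over the genes of the table, and A549-HOXC6 replicate 2 was the shallowest. Levels are CPM, that is counts scaled to a common library total, after adjustment by the trimmed mean of M-values (TMM). A floor of 3 counts in a library equals 0.913 to 2.48 CPM before that adjustment. The copy of the count table used here stops before the identifier of HOXC6, which was not analysed here, so the labels could not be checked against it. The epithelial genes KRT7, KRT18, CDH1 and ELF3 were high in both lines, whereas ESRP1 and GRHL2 had at most 3 counts in any A549 library and EPCAM was low there (5.75 ± 1.12 CPM in A549-NEO against 196 ± 11.5 CPM in PC9-NEO). The lung lineage gene NKX2-1 had at most 13 counts in any library. Of 15 markers of immune, stromal and endothelial cells, LYZ and TYROBP were at 0 in every library. The markers named next were picked after their values were seen. ACTA2 and COL1A1 were the highest of the list in A549-NEO, with means of 85.2 and 67.5 CPM. ITGAX (17.2 CPM), THY1 (10.3 CPM) and CD68 (9.13 CPM) followed there. In PC9-NEO the highest were COL1A1 (24.8 CPM), CD68 (8.81 CPM) and ACTA2 (2.97 CPM). The summed level of this list was 183 to 197 CPM in A549-NEO, 159 to 197 CPM in A549-HOXC6, 32.6 to 50.8 CPM in PC9-NEO and 47.1 to 64.1 CPM in PC9-HOXC6. The number of these markers with at most 3 counts in every library was 10, 5, 11 and 11 of 15 in the same order, and their part in the results was not tested.

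In the GENCODE annotation of GRCh37, CXCL1, CXCL2, CXCL3 and CXCL5 lie within 229804 bp of chromosome 4, each with 4 exons. CXCL1 (ENSG00000163739) occupies 74735110 to 74737025 on the forward strand. CXCL5 (ENSG00000163735, 74861359 to 74864394), CXCL3 (ENSG00000163734, 74902306 to 74904524) and CXCL2 (ENSG00000081041, 74962757 to 74964913) follow on the reverse strand. CXCL1, CXCL2 and CXCL3 are close paralogs. The longest run of identical transcript sequence was 97 bases between CXCL2 and CXCL3, 77 between CXCL1 and CXCL2 and 55 between CXCL1 and CXCL3, and no window of 150 bases, the read length, was identical. Shorter fragments of these 3 genes could still be placed on the wrong paralog, so their separate values carry that uncertainty.

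The other members lie on 6 chromosomes. CCL20 (ENSG00000115009) is on chromosome 2 from 228670455 to 228682280, IL6 (ENSG00000136244) on chromosome 7 from 22765503 to 22771621, and LIF (ENSG00000128342) on chromosome 22 from 30636442 to 30642748. ICAM1 (ENSG00000090339) is on chromosome 19 from 10381769 to 10397291, NFKBIA (ENSG00000100906) on chromosome 14 from 35870285 to 35873955, and TNFAIP3 (ENSG00000118503) on chromosome 6 from 138188351 to 138204451. Exons of 5 members overlap exons of genes on the opposite strand, by 876 bp at ICAM1, 474 bp at IL6, 422 bp at CXCL5, 169 bp at LIF and 95 bp at TNFAIP3. The strand setting of the counting is not given in the sources used here, so reads from such partners may be included in these counts.

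Promoter sequence was available from RefSeq (GRCh38.p14) for 9 of the 10 members, all but LIF, as 250 bases before to 50 bases after the gene start. The κB consensus GGGRNNYYCC (R, A or G. Y, C or T. N, any base), searched on both strands, was found in 8 of these 9 windows and in 11.3% of all 35116 promoter windows of the same length. The members were chosen by name as genes of this pathway, and CXCL1, CXCL2 and CXCL3 are close paralogs, so this share is not a test. Below are 65 bases of each window that end 41 bases upstream of the start, 5′ to 3′ on the strand of the gene, with κB matches in capitals. They are shown because NF-kB dimers act on these genes through such sites, and the 8 genes with a match all have it in this stretch.
CXCL1: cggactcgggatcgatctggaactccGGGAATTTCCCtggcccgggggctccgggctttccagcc
CXCL2: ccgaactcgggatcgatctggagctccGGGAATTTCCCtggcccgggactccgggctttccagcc
CXCL3: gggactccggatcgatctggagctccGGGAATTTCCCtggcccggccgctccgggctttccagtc
CXCL5: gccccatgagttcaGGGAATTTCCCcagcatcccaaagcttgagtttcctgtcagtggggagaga
CCL20: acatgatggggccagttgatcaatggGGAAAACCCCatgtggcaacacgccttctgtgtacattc
IL6: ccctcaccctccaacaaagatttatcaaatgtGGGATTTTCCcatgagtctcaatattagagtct
ICAM1: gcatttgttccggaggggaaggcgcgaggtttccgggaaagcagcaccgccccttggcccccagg
NFKBIA: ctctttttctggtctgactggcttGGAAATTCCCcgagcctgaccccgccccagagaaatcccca
TNFAIP3: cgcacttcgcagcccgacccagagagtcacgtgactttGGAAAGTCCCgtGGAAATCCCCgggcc

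These stretches lie at chr4:73869288-73869352 for CXCL1 on the forward strand, and at chr4:74099236-74099300 for CXCL2, chr4:74038730-74038794 for CXCL3 and chr4:73998718-73998782 for CXCL5 on the reverse strand. Those of CCL20 (chr2:227813737-227813801), IL6 (chr7:22727095-22727159), ICAM1 (chr19:10271015-10271079) and TNFAIP3 (chr6:137867154-137867218) are on the forward strand, and that of NFKBIA (chr14:35404790-35404854) is on the reverse strand. The 4 CXCL genes carry the same 11 capital letters, in which matches on both strands overlap. TNFAIP3 has 2 separate matches, and ICAM1 has no match in its window. Sites that depart from the consensus searched would not be found, so ICAM1 may still hold a κB site. A further 3 motifs were searched on both strands. TATAAA was found in 3 of 9 member windows (CCL20, ICAM1 and NFKBIA) and in 11.5% of all windows. TGANTCA, the letters of an AP-1 site, was found in 0 of 9 against 7.71% of all windows, and TGATTNAT, the letters of a HOX and PBX site, in 0 of 9 against 2.82%. These counts describe the letters of the windows and do not show binding.

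**Figure D1:**
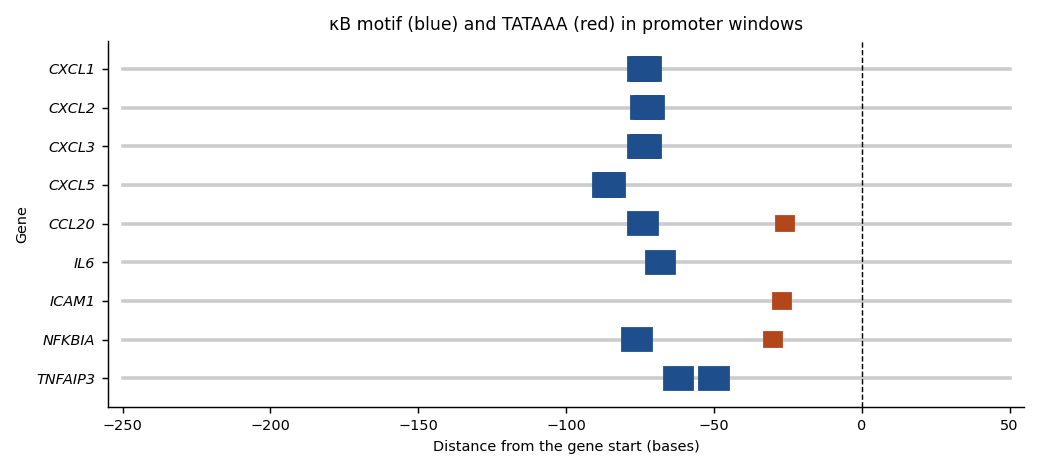
Positions of κB motif matches (blue blocks) and TATAAA matches (red blocks) along 9 promoter windows, 1 grey line per gene, with the distance from the gene start in bases on the x axis and the start as a dashed line. The κB blocks of 8 genes lie between 91 and 46 bases upstream, and ICAM1 has no blue block.

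Levels per kilobase of transcript can be compared between genes, and NFKBIA was the highest member in all 4 groups, with 159 ± 3.94 CPM per kb in A549-NEO and 123 ± 5.84 CPM per kb in PC9-NEO (SD, n = 3). In A549-NEO it was followed by LIF (95.8 ± 2.86 CPM per kb) and CXCL5 (93.0 ± 6.28 CPM per kb), whose libraries overlapped. CXCL1, CXCL2, TNFAIP3, CXCL3, CCL20, ICAM1 and IL6 came next in that order, with no overlap between neighbours. In PC9-NEO the order was NFKBIA, ICAM1 (54.2 ± 5.27 CPM per kb), LIF, CXCL1 and TNFAIP3, again without overlap, while CXCL2, CXCL3, IL6, CXCL5 and CCL20 overlapped near 0. In A549-HOXC6 LIF had moved below CXCL5 and its libraries overlapped those of CXCL1, and TNFAIP3, CXCL2 and CXCL3 also overlapped in turn, as did ICAM1 and CCL20. In PC9-HOXC6 TNFAIP3 and CXCL1 overlapped, and the 5 lowest members, from CXCL2 to IL6, overlapped in turn.

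**Figure D2:**
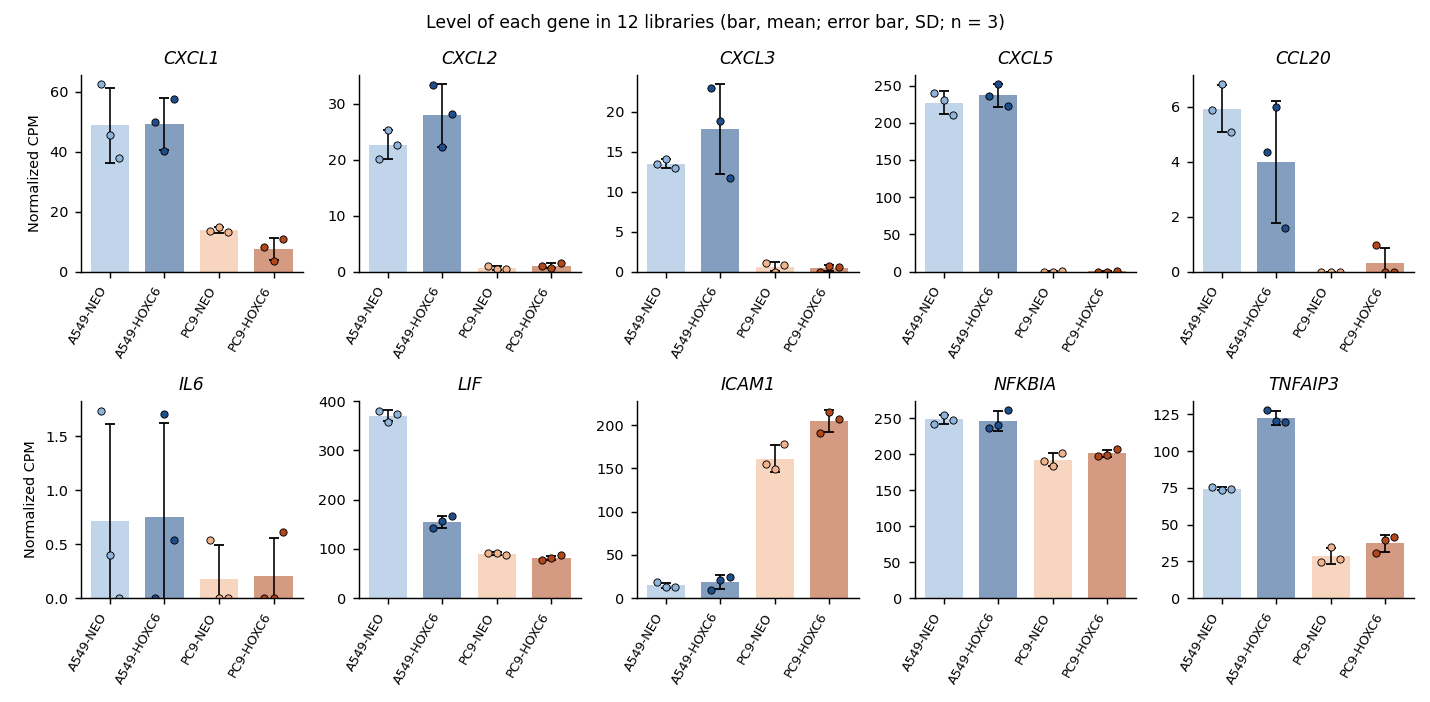
Normalized CPM of each of the 10 genes in A549-NEO, A549-HOXC6, PC9-NEO and PC9-HOXC6, each panel with its own y axis from 0 (bars, mean; error bars, SD; points, the 3 libraries). LIF falls from 371 to 155 CPM between A549-NEO and A549-HOXC6, and ICAM1 is the member that is higher in PC9.

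The first comparison asked which members changed with HOXC6 in A549 cells. LIF, a cytokine of the interleukin-6 family that signals through LIFR and glycoprotein 130, was downregulated. TNFAIP3, which encodes the ubiquitin-editing inhibitor A20, was higher by less than the fold change asked for. The 4 CXC chemokine genes, CCL20, ICAM1 and NFKBIA did not pass the test, and IL6 had too few counts for one. Calls required an edgeR quasi-likelihood p under 0.05 after Benjamini-Hochberg adjustment over all genes tested, together with a log2 fold change of more than 1 in size. By this rule 1 of the 9 members tested was called, against 7.21% of 8771 genes (1.7% up and 5.51% down).

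LIF measured 380, 358 and 374 CPM in the A549-NEO libraries and 142, 156 and 167 CPM in the A549-HOXC6 libraries. All A549-HOXC6 libraries lay below all A549-NEO libraries. The log2 fold change was -1.31 (SE 0.0928, 95% interval -1.50 to -1.12, adjusted p = 1.35e-11 by edgeR), and by p-value LIF ranked 18 of 8771 genes. Its fold change ran from -1.59 to -1.24 over 17 alternative analyses and was called in each. The 17 include the stricter adjusted p and the dropped fold criterion, which reuse the main fit.

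TNFAIP3 measured 75.5, 73.4 and 74.5 CPM in A549-NEO and 128, 120 and 120 CPM in A549-HOXC6, again without overlap. Its log2 fold change was 0.68 (SE 0.112, edgeR adjusted p = 2.37e-05), under the threshold of 1. LIF and TNFAIP3 were thus the 2 of 9 members past the p threshold alone, at any size of change, a rule that 39.6% of all genes passed. They were also the 2 of 9 whose groups did not overlap, which held for 50.4% of all genes.

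The neutrophil chemokine genes did not pass the test in A549, and their groups overlapped. CXCL5 measured 240, 231 and 210 CPM in A549-NEO and 236, 252 and 222 CPM in A549-HOXC6. CXCL1 measured 62.7, 45.7 and 38.0 CPM against 50.1, 40.2 and 57.6 CPM. Their log2 fold changes were 0.01 (95% interval -0.18 to 0.21) and -0.02 (95% interval -0.37 to 0.34), so that a change of 1 in either direction lay outside the interval. CXCL2 measured 20.1, 25.3 and 22.7 CPM against 33.4, 22.2 and 28.3 CPM, and CXCL3 measured 13.5, 14.03 and 12.9 CPM against 22.9, 18.8 and 11.7 CPM. For each of the pair, 2 of the 3 A549-HOXC6 libraries exceeded every A549-NEO library. The log2 fold change was 0.31 for CXCL2 (adjusted p = 0.230 by edgeR) and 0.38 for CXCL3 (adjusted p = 0.254 by edgeR). Without A549-HOXC6 replicate 3, in which CXCL3 was lowest, the CXCL3 value was 0.64 with an adjusted p of 0.0475 by edgeR. CCL20, a ligand of CCR6, was near the limit of detection with 17, 17 and 13 counts in A549-NEO and 12, 7 and 3 counts in A549-HOXC6. Its log2 fold change of -0.67 had a 95% interval from -1.59 to 0.24.

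The counts of IL6, the founding cytokine of its family, were 5, 1 and 0 with the empty vector and 0, 2 and 1 with HOXC6 in A549. In PC9 they were 1, 0 and 0 with the empty vector against 0, 0 and 2 with HOXC6. It was at or near the floor in every group and no difference was detectable at this depth.

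NFKBIA, which encodes IkBα, measured 242, 255 and 247 CPM in A549-NEO and 236, 241 and 261 CPM in A549-HOXC6, with a log2 fold change of -0.06 (95% interval -0.24 to 0.12). ICAM1, the receptor for leukocyte integrins, was low in A549, with 18.0, 12.8 and 12.9 CPM against 9.08, 21.4 and 24.0 CPM. The A549-HOXC6 libraries of ICAM1 spread on both sides of the A549-NEO libraries, and its log2 fold change was 0.17 (95% interval -0.43 to 0.77). Over the 9 members tested the median log2 fold change was 0.01, against -0.00 over all genes.

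In both lines the change with HOXC6 rose with the GC content of the transcript. Spearman's correlation between the 2 was 0.530 over 8712 genes in A549 and 0.527 over 8360 genes in PC9, as a description across genes, which are not independent. The members ranged from 35.6% GC (CCL20) and 37.1% (CXCL5) to 56.0% (ICAM1) and 57.1% (LIF), with a median of 48.6% over the annotated genes of the table. Each library was therefore also corrected by a smooth fit to transcript GC and length, and the part of GC content in the results was not tested further. After this correction the counts of all genes called in A549 changed from 149 up and 483 down to 115 up and 222 down.

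In the corrected A549 data LIF had a log2 fold change of -1.59 (edgeR adjusted p = 3.83e-22) and TNFAIP3 of 0.54 (edgeR adjusted p = 5.13e-05). LIF lies on the GC-rich side, where uncorrected changes tended upward, and its decrease was larger after the correction. CXCL5, on the GC-poor side, went from 0.01 to 0.50 (edgeR adjusted p = 2.12e-06), and NFKBIA from -0.06 to -0.39 (edgeR adjusted p = 5.25e-05). The values of CXCL5 and NFKBIA in A549 therefore depended on this choice, although neither reached the fold threshold.

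**Figure D3:**
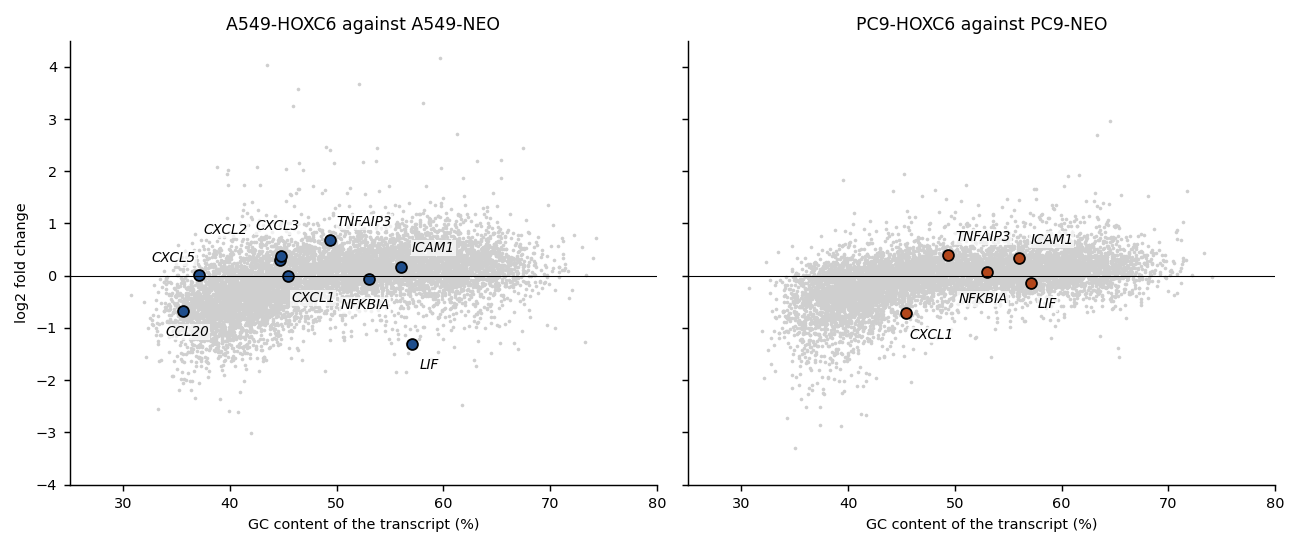
log2 fold change with HOXC6 against the GC content of the transcript in percent, in A549 (left) and PC9 (right), with every tested gene in grey and the tested members in colour. The grey cloud rises from left to right in both lines, and LIF in A549 lies at its lower edge, at 57.1% GC.

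The second comparison asked the same of PC9 cells. Of the 10 members, 5 passed the filter on low counts (CXCL1, LIF, ICAM1, NFKBIA and TNFAIP3), and 0 of these 5 were called by edgeR, against 4.53% of 8419 genes (0.962% up and 3.56% down). DESeq2 also called 0, and 3 of the 5 (CXCL1, ICAM1 and TNFAIP3) had an unadjusted edgeR p under 0.05, as did 38.1% of all genes. ICAM1 was the 1 member past the p threshold alone, against 27.5% of all genes.

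ICAM1 measured 155, 149 and 179 CPM in PC9-NEO and 191, 216 and 207 CPM in PC9-HOXC6. The groups did not overlap, and the log2 fold change was 0.34 (SE 0.0878, edgeR adjusted p = 0.00395). After the GC and length correction the value for ICAM1 was 0.12 (edgeR adjusted p = 0.345) and no longer passed.

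CXCL1 measured 13.5, 15.1 and 13.1 CPM in PC9-NEO and 8.19, 3.68 and 10.96 CPM in PC9-HOXC6, which rest on 25, 30 and 31 counts against 17, 5 and 36. Every PC9-HOXC6 library was lower, with a log2 fold change of -0.72 (SE 0.311, edgeR adjusted p = 0.0835). Without PC9-HOXC6 replicate 3, the highest of its group, the value was -1.12 with an edgeR adjusted p of 0.0405, and CXCL1 was then called.

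LIF, which fell in A549, measured 91.7, 92.5 and 86.8 CPM in PC9-NEO and 78.0, 81.0 and 86.5 CPM in PC9-HOXC6. Its groups in PC9 lay apart by a small margin, and the log2 fold change was -0.13 (95% interval -0.35 to 0.09, edgeR adjusted p = 0.394). With the GC and length correction it was -0.35 for LIF in PC9 (edgeR adjusted p = 0.0186). CXCL1, LIF and ICAM1 were thus 3 of 5 members whose groups did not overlap in PC9, against 39.9% of all genes.

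TNFAIP3 measured 24.8, 34.7 and 26.7 CPM in PC9-NEO and 30.8, 39.8 and 41.4 CPM in PC9-HOXC6. The groups overlapped, and the log2 fold change was 0.39 (SE 0.179, edgeR adjusted p = 0.109). NFKBIA was nearly level, with 191, 184 and 202 CPM against 198, 198 and 207 CPM and a log2 fold change of 0.07 (95% interval -0.10 to 0.23). The value for NFKBIA in PC9 changed sign, to -0.10, with the GC and length correction and, to -0.02, when libraries were scaled by their totals alone.

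The other 4 chemokine genes were at or near the floor in PC9. The PC9-NEO libraries held 2, 1 and 1 counts of CXCL2, against 2, 1 and 5 with HOXC6, and 2, 0 and 2 counts of CXCL3, against 0, 1 and 2. CXCL5 had 0, 0 and 1 counts against 0, 0 and 5, and CCL20 had 0 in every PC9-NEO library against 2, 0 and 0. The 5 counts of CXCL2 and of CXCL5 were both in PC9-HOXC6 replicate 3, the deepest library, and no difference was detectable at this depth. Over the 5 members tested the median log2 fold change was 0.07, against -0.00 over all genes.

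**Figure D4:**
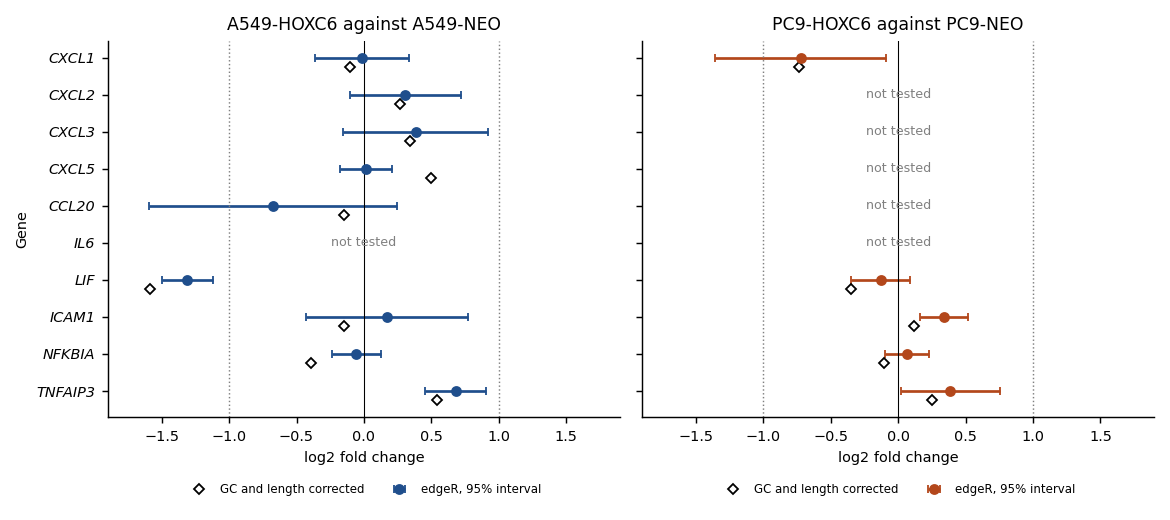
log2 fold change of each member with HOXC6 in A549 (left) and PC9 (right), with the 95% interval from edgeR (filled circles with bars) and the value after the GC and length correction (open diamonds). Dotted lines mark a log2 fold change of 1 in each direction, and LIF in A549 is the member whose interval, from -1.50 to -1.12, lies past one of them.

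The third comparison tested whether the change with HOXC6 differed between the lines, by an interaction term fitted to the 12 libraries. LIF was the 1 of 9 members called, against 5.15% of 9229 genes (2.76% higher and 2.38% lower in A549). The LIF change in A549 minus that in PC9 was -1.13 on the log2 scale (SE 0.141, 95% interval -1.42 to -0.85, edgeR adjusted p = 9.69e-08). It stayed between -1.20 and -1.06 over 22 alternatives, the GC and length correction among them. These 22 also include the stricter adjusted p and the dropped fold criterion, which reuse the main fit. TNFAIP3 was past the adjusted threshold in A549 and not in PC9, but the difference between the lines was 0.34 (95% interval -0.08 to 0.75, edgeR adjusted p = 0.266). ICAM1, past that threshold in PC9 and not in A549, likewise showed a difference of -0.16 (95% interval -0.72 to 0.39, edgeR adjusted p = 0.747). The difference for CXCL1 was 0.74 (95% interval 0.03 to 1.44, edgeR adjusted p = 0.139). The differences for CXCL2, CXCL3, CXCL5 and CCL20 rest on PC9 libraries near the floor and were not past the threshold, and that of CXCL5 turned from -1.82 to 1.96 without PC9-HOXC6 replicate 3.

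The lines themselves were compared in their empty-vector libraries. Because A549 and PC9 were kept in different media, line and medium cannot be told apart here. This comparison shares A549-NEO with the first comparison and PC9-NEO with the second. In A549-NEO cells the 4 CXC chemokine genes, CCL20, LIF and TNFAIP3 were higher than in PC9-NEO cells, and ICAM1 was lower. Of the 5 members with at least 10 counts in every library of this comparison, 4 were called (CXCL1, LIF and TNFAIP3 higher, ICAM1 lower) and NFKBIA was not. In the fit held to that minimum, 1112 of 7614 genes were called higher and 966 lower. Over the 9076 genes tested without that minimum, 36% were called (19.6% higher and 16.4% lower). The groups of these 5 members did not overlap, which held for 74.4% of those 9076 genes. CXCL2, CXCL3, CXCL5 and CCL20 were also called higher in A549-NEO, but they passed the filter on low counts only through A549-NEO, where they are high, so they had to differ and are not set against these shares.

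CXCL5 averaged 227 ± 15.3 CPM in A549-NEO and had at most 1 count in any PC9-NEO library, so it was at least 155-fold higher when the floor of 3 counts per library, averaged over the group, is set in place of the PC9-NEO level. By the same bound CXCL2 was at least 15.5-fold higher, CXCL3 at least 9.21-fold higher and CCL20 at least 4.05-fold higher. CXCL1, the one CXC member with counts well above the floor in both lines, averaged 48.8 ± 12.6 CPM against 13.9 ± 1.04 CPM, a log2 fold change of 1.86 (SE 0.201, edgeR adjusted p = 2.33e-10).

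LIF averaged 371 ± 11.1 CPM in A549-NEO against 90.3 ± 3.08 CPM in PC9-NEO, a log2 fold change of 2.08 (SE 0.0810, edgeR adjusted p = 4.35e-23). In A549-HOXC6 cells, at 155 ± 12.7 CPM, every LIF library still lay above those of PC9-NEO. TNFAIP3 averaged 74.5 ± 1.06 CPM against 28.7 ± 5.24 CPM, a log2 fold change of 1.41 (edgeR adjusted p = 3.27e-11). ICAM1 went the other way, with 14.6 ± 2.96 CPM in A549-NEO against 161 ± 15.6 CPM in PC9-NEO and a log2 fold change of -3.41 (SE 0.138, edgeR adjusted p = 1.61e-22). NFKBIA, at 248 ± 6.15 CPM against 192 ± 9.10 CPM, differed by 0.41 (edgeR adjusted p = 1.37e-05), less than the fold threshold.

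The patterns over the 12 libraries were compared with those of 9229 genes, as the root mean square difference of log2 CPM after each gene's own mean was subtracted. The gene nearest to LIF was ENSG00000112096, which has no name in the tables used here (0.181). The nearest to TNFAIP3 were ABL1 (0.147) and STAT3 (0.156), and those to ICAM1 were PADI4 (0.244) and FGD3 (0.318). CXCL1 was nearest to CEP112 (0.245) and AKR1C2 (0.345), CXCL2 to EIF4E3 (0.198) and BMPER (0.238), and CXCL3 to SLC4A4 (0.372) and KIF5A (0.379). CXCL5 was nearest to CACNG7 (0.345) and GJA1 (0.427), and CCL20 to PBX3 (0.333) and NPC1 (0.357). Among the members themselves, CXCL2 and CXCL3 were each other's nearest (0.450). The difference between the lines makes up most of these patterns, and the values are descriptions without a test. NFKBIA spanned 0.31 on the log2 scale between its highest and lowest group and was left out.

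Other genes of the pathway were described from lists by role. Listed genes not matched in the table used here, MYD88 and IRAK1 among them, were not analysed, so the counts cover matched genes only. Upstream, 1 of 9 receptors tested was called up and 1 down in A549, against 1.7% and 5.51% of all genes. IL17RC, a receptor subunit for interleukin-17, rose from 24.7 ± 2.97 CPM in A549-NEO to 63.3 ± 16.7 CPM in A549-HOXC6 (log2 fold change 1.32, edgeR adjusted p = 1.32e-06). TNFRSF1B, a receptor for TNF, fell from 6.55 ± 0.127 CPM to 2.52 ± 0.909 CPM (log2 fold change -1.46, edgeR adjusted p = 0.0126). It was near the limit of detection, with at most 19 counts in any A549-NEO library and at most 7 in any A549-HOXC6 library. By the p threshold alone 3 of these 9 receptors were higher and 2 lower in A549, against 18.9% higher and 20.7% lower among all genes. With the GC and length correction, which was applied to the lists after the data were seen, these became 2 higher and 6 lower, against 12.6% and 19.2% of all genes.

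Of 23 adaptors and kinases tested in A549, 2 were higher and 10 lower at an adjusted p under 0.05, and 2 were called, both down. The shares of all genes were 18.9% higher, 20.7% lower and 7.21% called. BIRC3 and BIRC2 encode the ubiquitin ligases cIAP2 and cIAP1, which act downstream of TNF receptors. BIRC3 fell from 103 ± 15.1 CPM to 37.01 ± 8.35 CPM (log2 fold change -1.49, edgeR adjusted p = 2.54e-08), and BIRC2 from 39.9 ± 4.01 CPM to 20.3 ± 3.77 CPM (log2 fold change -1.03, edgeR adjusted p = 0.000125). Both have GC-poor transcripts, at 35.8% and 37.4%, and with the GC and length correction BIRC3 changed by -0.79 and BIRC2 by -0.52, under the fold threshold. The corrected counts for the list in A549 were 1 higher and 8 lower, against 12.6% and 19.2% of all genes, with 0 called. In PC9, 1 of 21 adaptors and kinases was higher and 2 lower at any size, against 13.3% and 14.2% of all genes, and 0 were called by edgeR.

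Of the 5 NF-kB subunit genes 4 were tested in both lines, and 0 were called. RELA, the main subunit of the canonical pathway, was not analysed here. NFKB2 and REL, named here after their values were seen, were the 2 lower in A549 at an adjusted p under 0.05 (log2 fold changes -0.29 and -0.87, edgeR adjusted p = 0.00713 and 0.0376), and NFKB2 was the 1 higher in PC9 (0.40, edgeR adjusted p = 0.0015). With the GC and length correction 2 of the 4 were lower in A549, and 0 were higher in PC9. Between the empty-vector lines RELB averaged 236 ± 11.5 CPM in A549-NEO against 33.5 ± 5.29 CPM in PC9-NEO (log2 fold change 2.86, edgeR adjusted p = 2.18e-23), and NFKB2 averaged 497 ± 27.6 CPM against 142 ± 14.8 CPM (1.85, edgeR adjusted p = 5.34e-22). RELB and NFKB2 encode the subunits of the non-canonical pathway. Of 18 tested members of the IkB family and other feedback inhibitors, NFKBIA and TNFAIP3 not among them, 1 was higher and 3 lower in A549 at any size and 2 of 17 were higher and 1 lower in PC9, with 0 called in either line. Among all genes the shares were 18.9% and 20.7% in A549 and 13.3% and 14.2% in PC9. After the correction the feedback inhibitors gave 1 higher and 8 lower in A549 and 1 higher and 3 lower in PC9. The corrected shares of all genes were 12.6% and 19.2% in A549 and 8.46% and 12.6% in PC9.

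Of 35 other response genes of NF-kB tested in A549, 6 were higher and 11 lower at an adjusted p under 0.05, and PLAU and BCL2A1 were called down. Among all genes in A549, 18.9% were higher, 20.7% lower and 5.51% called down. SOD2 was also listed, but no row of the table was matched to it by name, so these counts leave it out. PLAU, the urokinase plasminogen activator, fell from 811 ± 25.1 CPM to 383 ± 24.8 CPM (log2 fold change -1.12, edgeR adjusted p = 1.03e-11). After the GC and length correction PLAU changed by -1.42 (edgeR adjusted p = 1.2e-23). BCL2A1, an inhibitor of apoptosis of the BCL2 family, fell from 19.3 ± 4.87 CPM to 8.84 ± 2.05 CPM (-1.17, edgeR adjusted p = 0.00166), and after the correction it changed by -0.90, under the fold threshold. In PC9, 11 of 35 were higher and 3 lower at any size of change, against 13.3% higher and 14.2% lower among all genes, and 0 were called. The median log2 fold change of this list was -0.11 in A549 and 0.20 in PC9, against -0.00 over all genes in either line. With the GC and length correction the counts became 3 higher and 17 lower in A549 (12.6% and 19.2% of all genes) and 6 higher and 2 lower in PC9 (8.46% and 12.6% of all genes). In the corrected A549 data 4 of the 35 were called down, against 222 of 8771 genes.

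Receptors for the ligands and the pathway downstream of LIF and IL6 were also described. Among all genes, 18.9% were higher and 20.7% lower at an adjusted p under 0.05 in A549, and 7.21% were called. In PC9 these shares were 13.3%, 14.2% and 4.53%. With the GC and length correction 12.6% were higher and 19.2% lower in A549, and 8.46% and 12.6% in PC9. IL6ST, which encodes glycoprotein 130, was the 1 of 6 ligand receptors called in PC9, with a fall from 58.9 ± 4.41 CPM to 22.7 ± 2.54 CPM (log2 fold change -1.37, edgeR adjusted p = 1.15e-07). Its transcript has 36.5% GC, and the corrected value for IL6ST was -0.78 (edgeR adjusted p = 0.000580). In A549 0 of 6 ligand receptors were called and 2 were lower at any size, LIFR (-0.82, edgeR adjusted p = 0.0451) and ITGB2 (-0.80, edgeR adjusted p = 0.0367), named after their values were seen. With the correction 1 of the 6 was lower in A549, and it was called. JAK2, a kinase bound to glycoprotein 130, fell from 9.73 ± 2.08 CPM to 4.26 ± 1.66 CPM in A549 (-1.17, edgeR adjusted p = 0.0145), and this call was lost with the correction (-0.51, edgeR adjusted p = 0.343). JAK2 had at most 34 counts in any A549-NEO library and at most 12 in any A549-HOXC6 library. It was the 1 of 8 genes of the glycoprotein 130 and STAT3 list called there, and at any size 1 was higher and 4 lower (2 and 3 after the correction). In PC9 2 of 7 were higher and 0 lower, and 0 were called. Of 23 other chemokines and 21 other cytokines listed, 15 and 16 were matched in the table used here. CXCL8 and TNF were among those not matched and were not analysed here. The matched chemokines and cytokines gave 2 and 4 tested genes in each line. None of them was called by edgeR, and at any size 1 cytokine, IL18, was lower in A549 (-0.53) and higher in PC9 (0.70). With the correction 3 of the 4 cytokines and 1 of the 2 chemokines were lower in A549, with 0 called. In PC9 1 cytokine was then higher and 0 chemokines passed. Annotated exons of IL17RC overlap those of a gene on the same strand by 2107 bp, and exons of PLAU, IL6ST and BIRC3 overlap those of genes on the opposite strand by 915, 797 and 126 bp, so their counts may include reads of these neighbours.

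**Figure D5:**
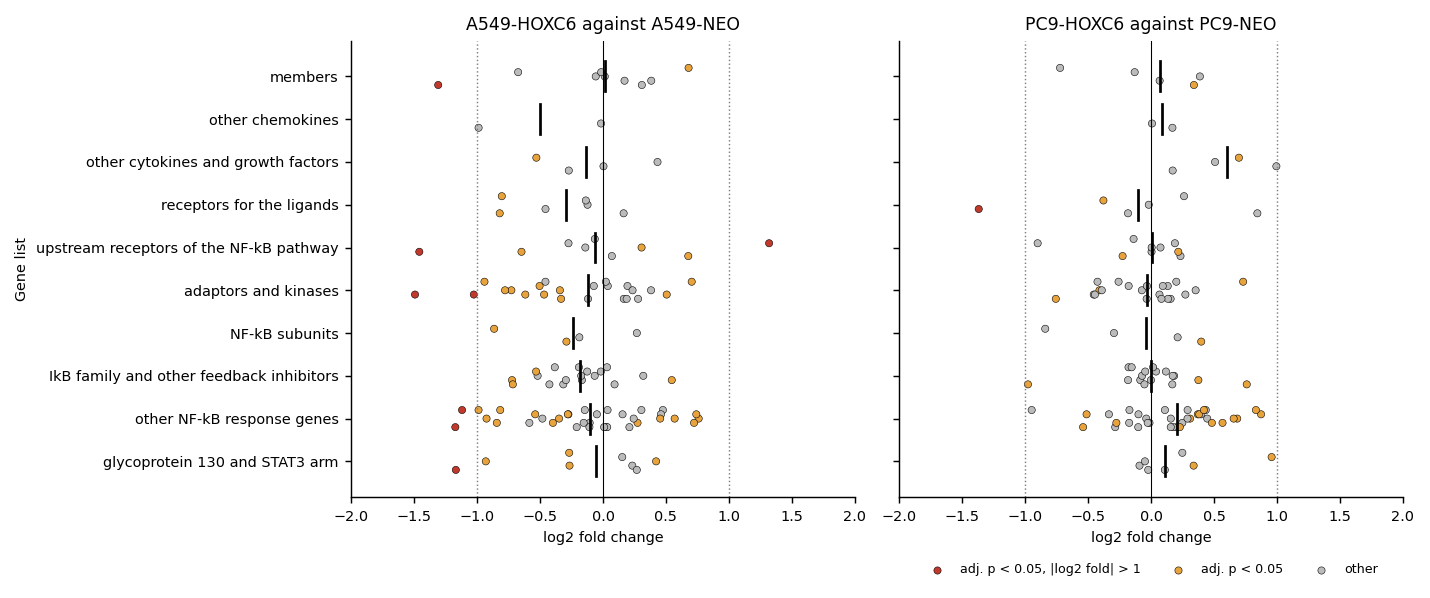
log2 fold change with HOXC6 in A549 (left) and PC9 (right) for every tested gene of 10 lists, 1 point per gene, with the list's median as a black bar and dotted lines at 1 in each direction. Red points passed both thresholds, orange points the adjusted p alone. Of the 8 red points in A549, 7 lie on the left, LIF among them, and IL6ST is the red point in PC9.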

How the data were processed

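RNA-seq of A549-HOXC6, A549-NEO, PC9-HOXC6 and PC9-NEO cells was analysed, with 3 libraries per group (12 libraries). PolyA RNA was selected by the authors, who used a directional library kit and sequenced paired reads of 150 bp. Reads were mapped with HISAT2 (2.1.0, after bcl2fastq 2.19) to GRCh37.p13 and counted per gene with HTSeq (0.9.1), with versions from the submitters' processing notes. The deposited values are these raw read counts, without normalization or pooling. The strand setting and the annotation release are not given in the sources used here. The copy of the table used here, in order of gene identifier, held 12584 complete genes and ended in 1 incomplete row, which was left out. Genes with later identifiers, HOXC6 included, were not analysed here. Names, lengths and GC content came from GENCODE release 44 on GRCh37, which holds 12463 of these genes.

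The filter on low counts was filterByExpr and the scaling TMM. Groups were compared in edgeR (4.0.16, on R 4.3.3) with its quasi-likelihood test, over the 6 libraries of each comparison and over 12 for the difference between the lines, with adjustment over all genes tested. The libraries held 1212053 to 3286577 counts, and intervals and floors cover counting error and library spread only. Replicate libraries differed beyond counting noise in all 12 pairs (chi-square per degree of freedom 1.58 to 4.26), so none was a duplicate. The highest values, 4.26 and 3.11, were those of A549-HOXC6 replicate 3 against replicates 1 and 2, which gave 1.67 between themselves. The tests were checked on simulated counts. The members and lists were chosen with earlier results of these data known.

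Genes named in the text are the 10 members, up to 4 called genes per list and comparison by smallest adjusted p, and, for members whose group means span more than 1 on the log2 scale, the 2 genes nearest in pattern. Others are marked where named, and some genes that the rule names are not reported here. The alternatives were DESeq2 (1.42.0), RLE size factors, library size alone, no filter, a minimum of 10 counts per library, the stricter adjusted p of 0.01, no fold criterion, a replicate block, a per-library smooth fit to transcript GC and length (mgcv 1.9.3) with and without that block, 1 model over 12 libraries, and each library left out in turn.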

Additional observations from a re-analysis of the deposited data

Results flagged for a closer look

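The change of LIF with HOXC6 differed between the cell lines by the test of the difference itself. The A549 change minus the PC9 change was -1.13 on the log2 scale (SE 0.141, edgeR adjusted p = 9.69e-08), with LIF at 371 ± 11.1 CPM in A549-NEO and 155 ± 12.7 CPM in A549-HOXC6 against 90.3 ± 3.08 CPM in PC9-NEO and 81.8 ± 4.29 CPM in PC9-HOXC6 (SD, n = 3). LIF was lower in 3 of 3 A549-HOXC6 libraries. No test for single outlying libraries was run in these groups of 3, though each library was left out in turn. A549-HOXC6 replicate 3 differed most from the other libraries of its group. Without it the genes called in A549 were 129 up and 396 down, against 149 and 483 with it.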

How the results depend on the processing

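The number of members called was 1 in A549, 0 in PC9, 1 for the difference between the lines and 8 between A549-NEO and PC9-NEO, and it was the same under every alternative except the following. Without the fold criterion, 2 members passed in A549 (LIF and TNFAIP3), 1 in PC9 (ICAM1) and 9 between the empty-vector lines (NFKBIA added). With libraries left out in turn the PC9 count ran from 0 to 1, the 1 being CXCL1 without PC9-HOXC6 replicate 3. With at least 10 counts in every library, 4 members were called between the empty-vector lines, since 5 were tested there. The log2 fold change of LIF in A549 ran from -1.36 to -1.24 with libraries left out.

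Among the repeats of single member values, 558 kept their direction and side of the threshold, 4 came past it, and 16 had the opposite sign. The repeats with the stricter adjusted p and without the fold criterion reuse the main fit, so their values could not change. TNFAIP3 in A549, ICAM1 in PC9 and NFKBIA between the empty-vector lines came past only because the fold criterion was dropped. CXCL1 in PC9 came past it with a library left out. Those 16 did not pass the threshold in either analysis, and the cause was not tested. In A549, CXCL5 was -0.032 with library size alone, -0.016 with at least 10 counts, and between -0.038 and 0.067 with libraries left out. ICAM1 in A549 was -0.15 with the GC and length correction, -0.16 with that correction and the block, and -0.17 to 0.59 with libraries left out. CXCL1 in A549 was 0.030 in the model over 12 libraries and -0.17 to 0.21 with libraries left out. NFKBIA in PC9 was -0.015 with library size alone, -0.10 with the correction and -0.11 with the correction and the block. For the difference between the lines, leaving out a library gave ICAM1 from -0.53 to 0.30 and CXCL5 from -3.76 to 1.96.

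Replicate numbers are shared by the groups, but same-numbered libraries did not deviate together (correlations of -0.048 to 0.042), so the numbers do not pair the libraries. With the replicate number as a block the calls among members were the same, and LIF in A549 was -1.31. Over all genes the GC and length correction called 115 up and 222 down in A549 (149 and 483 without it) and 57 up and 134 down in PC9 (81 and 300 without it). With at least 10 counts in every library the all-gene counts were 95 up and 324 down in A549 and 52 and 181 in PC9, and scaling by library size alone moved the median of all genes between the empty-vector lines from 0.02 to -0.10.

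Depth limits IL6 in every group and CXCL2, CXCL3, CXCL5 and CCL20 in PC9, where changes below the floor of 3 counts would not be seen.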

Other observations

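Between the empty-vector lines, the pathway lists held many further differences, with 36% of all tested genes called there. Of 15 other chemokine genes in the table, 3 were tested. CXCL16 was lower in A549-NEO (79.0 ± 6.29 CPM) than in PC9-NEO (165 ± 6.96 CPM), CCL28 had 0 counts in every A549-NEO library against 10.1 ± 3.08 CPM, and CCL2, a monocyte attractant, averaged 7.71 ± 2.78 CPM against 0 counts in every PC9-NEO library. CCL28 and CCL2 passed the filter on low counts only through the line where they are high. Among other cytokines, IL11, which like LIF signals through glycoprotein 130, averaged 75.8 ± 3.22 CPM in A549-NEO and 14.6 ± 3.44 CPM in PC9-NEO, and IL18 averaged 80.6 ± 7.69 CPM against 20.3 ± 7.82 CPM. EBI3 and IL32 were also called higher in A549-NEO. They had at most 3 and 4 counts in any PC9-NEO library, so they too passed the filter only through A549-NEO and had to differ.

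Of 37 other NF-kB response genes tested, 17 were called higher and 8 lower in A549-NEO than in PC9-NEO. Some, such as BCL2A1 with at most 1 count in any PC9-NEO library, passed the filter on low counts only through a single line. Such genes had to differ, so the counts called in the lists of this section are partly fixed by the filter. PLAU averaged 811 ± 25.1 CPM against 84.0 ± 5.25 CPM. LCN2, an iron-binding protein of innate defence, went the other way, with 13.8 ± 3.98 CPM against 747 ± 29.0 CPM, as did F3, the tissue factor gene, with 3.44 ± 1.78 CPM against 245 ± 18.4 CPM. Among adaptors and kinases, 7 of 23 were called higher and 4 lower, with IRAK2 at 236 ± 7.14 CPM against 17.3 ± 1.24 CPM and MAP3K14, the kinase of the non-canonical pathway, at 218 ± 2.83 CPM against 67.2 ± 1.02 CPM. DUSP1, in the list of feedback inhibitors, averaged 580 ± 27.0 CPM against 13.3 ± 5.38 CPM. In the glycoprotein 130 and STAT3 list 5 of 8 were called higher and 0 lower by edgeR, with STAT3 at 319 ± 5.48 CPM against 124 ± 6.22 CPM and JAK1 at 388 ± 23.0 CPM against 175 ± 14.4 CPM.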
